A study of Mus musculus with 6 samples.

Results

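Mesothelial cells were examined in single-cell RNA sequencing of digested mouse mitral valves. A cell was counted as mesothelial by its expression. The cells were chosen by a sum of at least 3 unique molecular identifiers (UMIs, each one counted RNA molecule) of Upk3b, Msln, Nkain4, Muc16 and Krt19, with 0 UMIs of the leukocyte gene Ptprc and of the endothelial gene Pecam1. Of 53526 cells with 300 or more genes and no more than 10% of UMIs from mitochondrial genes, 1555 met this rule. The valves came from K/B.g7 mice, labelled inflamed, and from B.g7 mice, the controls, at 3, 8 and 25 weeks of age. K/B.g7 mice carry the KRN T cell receptor transgene together with the MHC class II molecule Ag7, which B.g7 mice carry without the receptor, and they develop autoantibody-driven arthritis and heart valve inflammation. The study asked which cells make up the mitral valve during this inflammation. Valve cells were freed by digestion with collagenase and DNase, erythrocytes were removed, and sorting took live singlets without a lineage marker. There was 1 library per genotype and age, 6 in all, and the sources used here do not say how many mice went into each.

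Mesothelium is the flat epithelium of the serous cavities. On the heart it forms the epicardium, the outermost cell layer, while the leaflets of a valve are covered by endothelium. Mesothelial cells combine keratins and an apical coat of mucins and mesothelin with transcription factors of mesodermal origin such as Wt1 and Tbx18, and epicardial cells of the embryo give rise to fibroblasts of the heart wall and of the valves.

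The 6 libraries held between 15196750 and 69152541 UMIs, 243691001 in all. In all 6 libraries the mesothelial cells were deeper than the median kept cell (medians of 2975 to 5703 UMIs for kept cells and of 4495 to 8778 UMIs for mesothelial cells). Predicted doublets made up 4.0% to 31.2% of the mesothelial cells of a library and 3.23% to 17.4% of all kept cells. Of the mesothelial cells, 19 carried a barcode sequence also used in another library, and none of them shared it with another mesothelial cell.

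The label was checked against genes that the rule did not use. Wt1, a transcription factor of mesothelium and epicardium, was detected in 75.0% of the 1555 cells and in 0.821% of 37859 comparison fibroblasts (cells with at least 5 UMIs of Dcn, Col1a1, Pdgfra and Lum and none of the 5 mesothelial genes). Krt7, a keratin of simple epithelia and the sixth marker fixed for this cell type, was detected in 755 of the 1555 cells (48.6%), against 0.214% of fibroblasts and 0.509% of endothelial cells. In the mesothelial cells with at least 1000 UMIs, each thinned to 1000 UMIs, the shares were 30.6% for Wt1 and 19.6% for Krt7. The thinned shares of the other cell classes are not given here. Lrrn4 was found in 79.8%, the uroplakin Upk1b in 76.5%, the claudin Cldn15 in 79.7% and the transcription factor Bnc1 in 44.9% of the mesothelial cells. Calb2, which encodes calretinin, was found in none of them. Of the fibroblast genes, Dcn was detected in 98.6% of mesothelial cells and 99.5% of fibroblasts, and also in 84.5% of endothelial cells and 61.4% of leukocytes. Lum was detected in 37.9% of mesothelial cells and 96.3% of fibroblasts, and Pdgfra in 16.0% and 53.7%. The fibroblast shares of Dcn, Lum and Pdgfra follow in part from the choice of the fibroblasts by these genes. As a background for the rule, 13 of 2554 endothelial cells (0.509%) and 16 of 2030 leukocytes (0.788%) held 3 or more UMIs of the 5 genes, at median depths of 4022.5 and 2929.0 UMIs.

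The data went against the label for most of the RNA of the 3 week libraries. There 31 of 53 K/B.g7 cells and 11 of 25 B.g7 cells carried only 3 to 11 UMIs of the 5 genes, and these cells held 70.3% and 83.5% of all UMIs of the mesothelial sums. In the other 4 libraries such cells held 2.83% to 11.5%. Neuron genes (10 genes, among them Npy, Cartpt, Pcsk1n and Tubb3) reached a summed level of 10925.2 CPM (a gene's UMIs scaled by all UMIs of the summed cells of a library) in K/B.g7 and 14885.3 CPM in B.g7 at 3 weeks, against 19.2 to 91.4 CPM at 8 and 25 weeks. The mesothelial genes outside the rule (14 genes) had the opposite order, at 2652.9 and 1386.1 CPM at 3 weeks and 4932.6 to 8188.4 CPM later. Nkain4, which is also a gene of neurons, was found in 92.5% and 92.0% of the 3 week cells, and in 91.1% to 97.5% in the other 4 libraries. The other rule genes were each found in smaller shares at 3 weeks than later, as Upk3b was in 56.6% and 68.0% against 94.7% to 97.9%.

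In cells with at least 12 UMIs of the 5 genes, a limit chosen after the values were seen, the picture was even across ages. There were 1266 such cells, 22, 60 and 363 in K/B.g7 and 14, 209 and 598 in B.g7 at 3, 8 and 25 weeks. Their neuron sum was 10.7 to 97.0 CPM, and their sum of the 14 mesothelial genes was 5069.7 to 8611.6 CPM in all 6 libraries. Around the limit of the rule itself, 128 cells had 3 or 4 UMIs of the 5 genes and 216 cells had 2, just outside. Wt1 stood at 16.3 CPM in the former and 9.40 CPM in the latter, against 419 CPM in the cells with at least 12, while the neuronal tubulin gene Tubb3 stood at 1851.1, 670 and 0.536 CPM. Levels below are of the cells with at least 12 UMIs unless stated otherwise, given as CPM of the summed cells of a library. At 3 weeks a single UMI was worth 10.7 CPM in B.g7, so low values there rest on very few molecules.

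**Figure D1:**
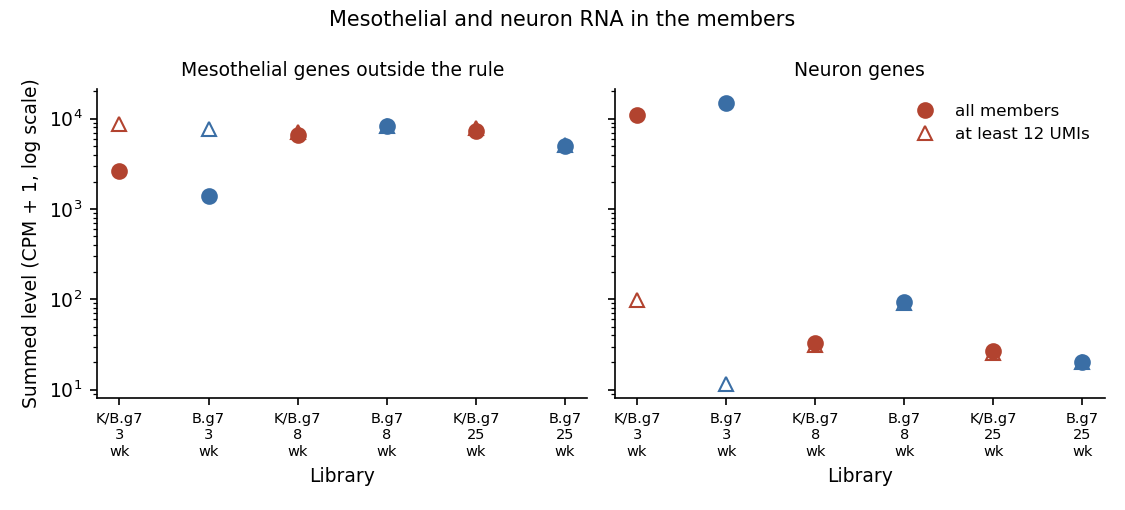
Summed CPM, on a logarithmic axis, of the 14 mesothelial genes that the rule did not use and of 10 neuron genes in the mesothelial cells of each library, once for all cells and once for cells with at least 12 UMIs of the 5 rule genes. The neuron sums of both 3 week libraries lie above 10925 CPM over all cells and at or below 97.0 CPM in the cells with at least 12 UMIs.

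Mesothelial cells took a larger share of the B.g7 libraries at 8 and 25 weeks. In K/B.g7 they were 0.925% of kept cells at 3 weeks (53 cells, exact 95% interval 0.694% to 1.21%), 0.816% at 8 weeks (76 cells, 0.643% to 1.02%) and 2.34% at 25 weeks (471 cells, 2.13% to 2.56%). In B.g7 they were 0.662% (25 cells, 0.429% to 0.976%), 4.38% (253 cells, 3.87% to 4.94%) and 7.71% (677 cells, 7.16% to 8.28%). The intervals cover counting error only. The mean share was 1.36% ± 0.849 for the K/B.g7 libraries and 4.25% ± 3.52 for the B.g7 libraries (SD, n = 3 each), a difference of -2.89 percentage points. Ranges of the genotypes overlapped, and the difference did not pass a two-sided exact permutation test (p = 0.400, where 3 against 3 libraries cannot go below 0.1). It was negative at 2 of 3 ages, by -3.56 points at 8 weeks and -5.37 points at 25 weeks, and 0.263 points at 3 weeks. With at least 5 UMIs of the 5 genes the 3 week shares were 0.454% and 0.503%, so that K/B.g7 was lower at 3 of 3 ages. Without the 25 week B.g7 library it was -1.16 points. A share of sorted cells cannot tell fewer mesothelial cells from more cells of other kinds.

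**Figure D2:**
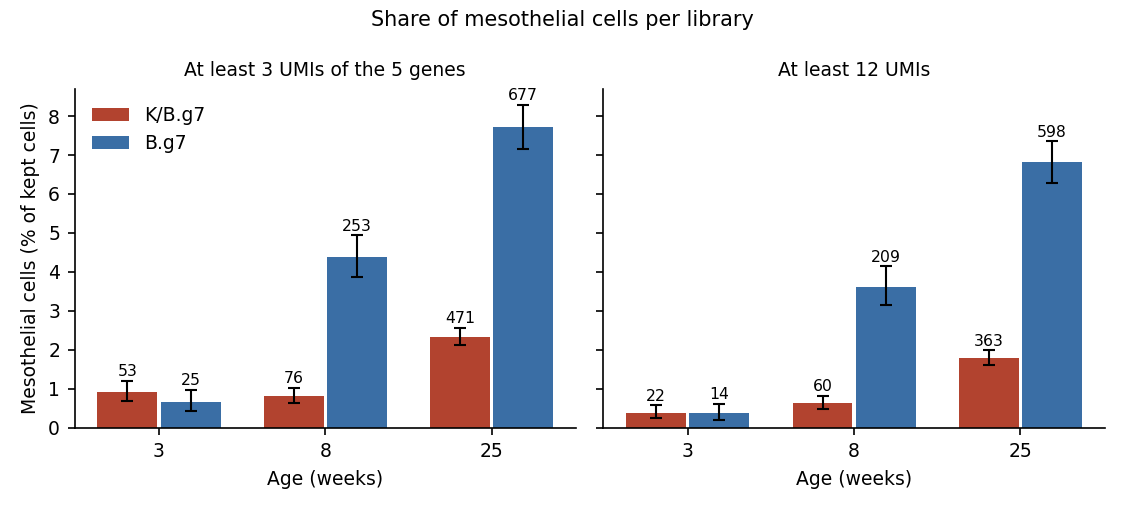
Percent of kept cells that met the mesothelial rule in each of the 6 libraries, by age and genotype, with exact binomial 95% intervals for counting error. The B.g7 libraries of 8 and 25 weeks lie at 4.38% and 7.71%, above all 3 K/B.g7 libraries.

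Genes far above fibroblasts in every library described the mesothelial cells. The comparison with fibroblasts describes the choice of cells and was not tested. Among genes outside the rule, the membrane glycoprotein gene Gpm6a had the largest ratio over fibroblasts (72.7, with 20 CPM added to both levels), followed by Lgals7 (54.0), Pkhd1l1 (46.5), Fxyd3 (38.6), Krt18 (34.4), Lrrn4 (30.9), Krt7 (30.2), Dmkn (27.3) and Upk1b (25.7). Igfbp5, which encodes a binding protein of insulin-like growth factors, had a ratio of 24.5, the tight junction gene Cldn15 one of 22.9, and Ezr, which links the apical membrane to actin, one of 18.9. Among the rule genes the ratio was 149 for Upk3b (chr5:136038496-136046487, mm10) and 83.9 for Msln, the gene of mesothelin (chr17:25748613-25754378). Over all mesothelial cells, the 3 week neuron RNA included, the ratios were lower, among them 57.9 for Gpm6a, 27.6 for Lgals7, 19 for Krt18 and 19.4 for Krt7. Some of these genes were shared with other cells. In endothelial cells Igfbp5 was at 3006.3 CPM, Pkhd1l1 at 289 CPM and Gpm6a at 262 CPM, and in leukocytes Ezr was at 160 CPM.

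Levels of the marker genes themselves differed between libraries in the same cells. Upk3b, a uroplakin and the most abundant rule gene, was at 3595.3, 2510.9 and 2639.1 CPM in K/B.g7 and 3229.1, 3503.5 and 2334.3 CPM in B.g7 at 3, 8 and 25 weeks, less than 2-fold apart. Muc16, the mucin of the apical coat, was at 503, 1612.4 and 1319.1 CPM in K/B.g7 and at 579, 603 and 406 CPM in B.g7. It was thus higher in K/B.g7 at 8 and 25 weeks, by 2.67-fold and 3.25-fold, and not at 3 weeks. Upk3b and Muc16 are genes of the rule, so their levels are of cells chosen in part by them and are a description only. Wt1 was flat by comparison, at 257, 331 and 450 CPM in K/B.g7 and 333, 470 and 394 CPM in B.g7. Krt7 was uneven, at 1204.6, 373 and 392 CPM in K/B.g7 and 504, 1056.4 and 75.1 CPM in B.g7, so that K/B.g7 was lower at 8 weeks (ratio 0.353) and higher at 25 weeks (5.22). Krt18, the keratin that pairs with Krt8 in simple epithelia, was at 1667.1, 519 and 355 CPM in K/B.g7 and at 794, 627 and 176 CPM in B.g7. Its values lay in order of age in both genotypes, but the difference of 25 against 3 weeks missed the threshold (log2 -2.15 ± 0.452 SE, adjusted p = 0.215, edgeR).

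Clustering of the 1555 cells gave 9 clusters, and the 2 genotypes filled different ones at 8 and 25 weeks. Clusters are made from the same genes, so they are a description with no test. Cluster 0 (424 cells) was led by the secreted glutathione peroxidase gene Gpx3, the anion exchanger gene Slc26a3, Wfdc2, Plet1 and Fgl2. It held 73.7% of the K/B.g7 cells of 8 weeks and 68.8% of those of 25 weeks, against 7.11% and 1.03% of the B.g7 cells. Cluster 4 (178 cells), led by Cst9, C1qtnf12 and Fxyd3, held 66.0% of the B.g7 cells of 8 weeks. Clusters 1 (347 cells; Igfbp3, Fndc1, Fgf1, Enpp2) and 2 (263 cells; Nrgn, Col6a5, Adgrf5, Fn1) held 48.6% and 37.8% of the B.g7 cells of 25 weeks. As a measure of likeness, the share of the makeup in common was 90.9% between 8 and 25 weeks for K/B.g7 and 14.7% for B.g7, and it was 19.1% between the genotypes at 8 weeks and 12.7% at 25 weeks. At a resolution of 1.0 the same shares were 87.8%, 15.4%, 20.8% and 14.7%. With 1 library per group, a cluster held mostly by 1 library may be that library and not a kind of cell.

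The 5 other clusters were led by genes of other cells, by cell division genes or by Slurp1. Cluster 3 (241 cells) was led by the fibroblast genes Gsn, Lum and Pi16 and 60.6% of it were predicted doublets. Cluster 8 (6 cells) was led by the macrophage gene Lyz2, and all of its cells were predicted doublets. Cluster 6 (17 cells, 10 from K/B.g7 and 7 from B.g7 at 3 weeks) was led by the neuropeptide genes Cartpt and Npy, with a median of 40036.0 UMIs in a cell, of which 4.0 were of the 5 rule genes. Cluster 7 (16 cells) was led by the cell division gene Top2a and included 8 of the 53 K/B.g7 cells of 3 weeks. Cluster 5 (63 cells), led by Slurp1, was shallow, at a median of 1095.0 UMIs. At least 3 of the 15 leading genes of clusters 3, 6 and 8 were on the fibroblast, neuron or leukocyte list. A fall of such genes when these clusters are left out thus follows in part from that choice. Clusters 3, 6 and 8 are called mixed clusters below. Cells outside them, a set trimmed after the values were seen, numbered 29, 60 and 338 in K/B.g7 and 17, 236 and 611 in B.g7 at 3, 8 and 25 weeks, which was 0.506%, 0.644% and 1.68% of kept cells against 0.450%, 4.09% and 6.96%.

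**Figure D3:**
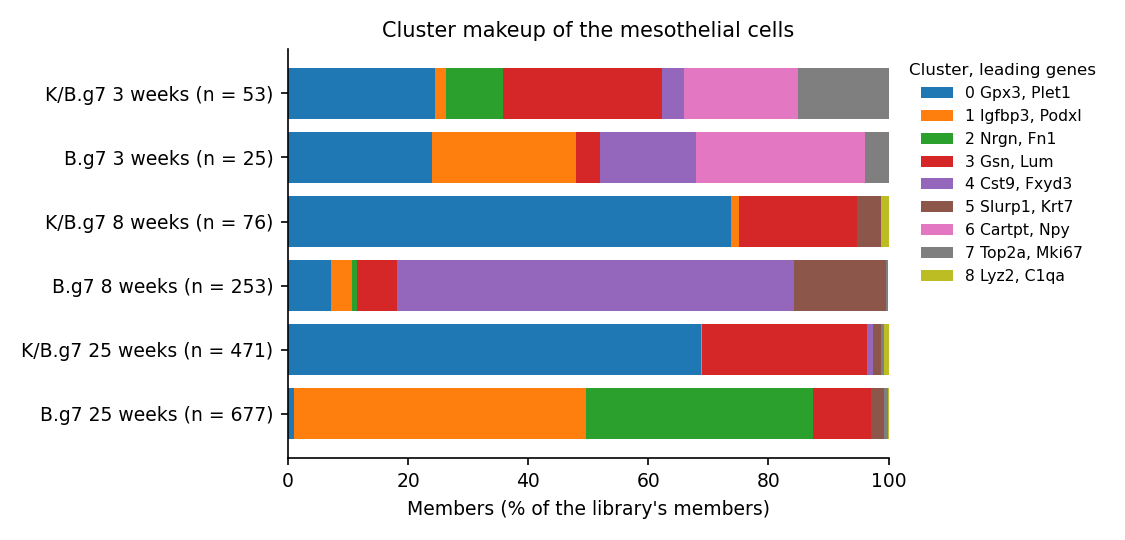
Percent of the mesothelial cells of each library in each of the 9 clusters, as stacked bars that add up to 100%. Cluster 0 takes 73.7% and 68.8% of the K/B.g7 bars of 8 and 25 weeks, while cluster 4 leads the B.g7 bar of 8 weeks (66.0%) and clusters 1 and 2 that of 25 weeks (48.6% and 37.8%).

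The sex of the cells moved with age and in part with cluster. Among mesothelial cells with UMIs of either Xist or Y-linked genes but not both, cells with Xist made up 93.5% of the K/B.g7 and 95.2% of the B.g7 cells at 3 weeks, and 92.6% and 94.4% at 8 weeks. At 25 weeks they made up 8.13% and 5.30%. Mesothelial cells of 3 and 8 weeks were thus nearly all from females and those of 25 weeks nearly all from males, in both genotypes, and age and sex cannot be told apart in them. Fibroblasts were more mixed in 5 of the 6 libraries, the exception being B.g7 at 8 weeks, with Xist in 65.3%, 69.3% and 34.1% in K/B.g7 and 54.7%, 97.2% and 75.6% in B.g7 at 3, 8 and 25 weeks. Cluster 0 held both sexes in K/B.g7, with 41 Xist and 3 Y cells at 8 weeks and 6 Xist and 195 Y cells at 25 weeks. In B.g7 at 8 weeks cluster 4 held 157 Xist cells and 1 Y cell. The few cells of that library in clusters 1 and 2 (9 and 2 cells), the clusters of B.g7 at 25 weeks, held no Xist-only cell and 5 and 2 Y cells.

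**Figure D4:**
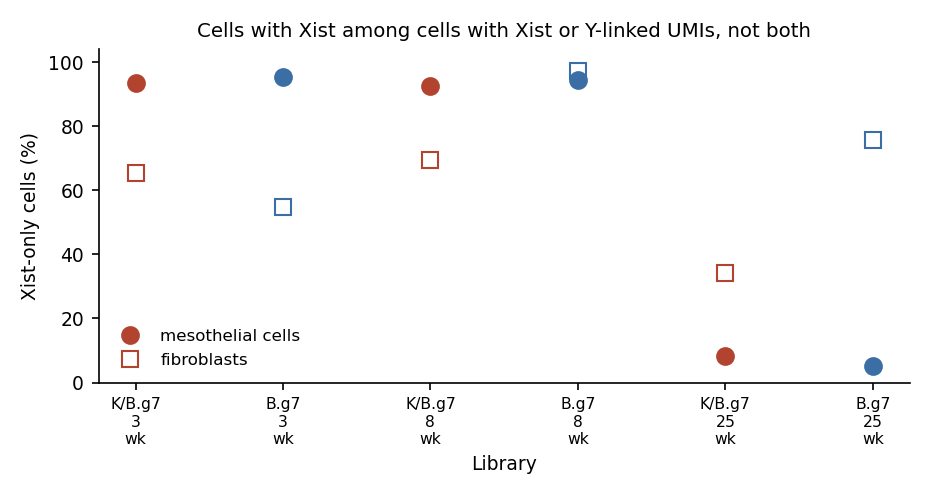
Percent of cells with Xist among cells with either Xist or Y-linked UMIs but not both, for mesothelial cells and fibroblasts of each library. Mesothelial cells lie between 92.6% and 95.2% at 3 and 8 weeks and at 8.13% and 5.30% at 25 weeks.

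No gene passed the test of genotype over all mesothelial cells, whose 3 week sums held the neuron RNA described above. UMIs were summed per library and tested by edgeR's quasi-likelihood method, age being a term of the model, so the ages stand as replicates of genotype and p-values measure the spread between single libraries. Of 11230 genes tested, 0 (0%) had an adjusted p under 0.05, with 651 at an unadjusted p under 0.05, and DESeq2 called 26. Without 3, 8 or 25 weeks edgeR called 0, 14 and 114 genes. In the cells with at least 12 UMIs it called 5 of 10191 genes (0.0491%), of which 4 were lower and 1 was higher in K/B.g7. Without 3, 8 or 25 weeks these cells gave 0, 162 and 35 calls.

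Genes lower in K/B.g7 included Hoxa5, Podxl and Cela1. Hoxa5 (chr6:52201754-52204587), a homeobox factor of body position, was at 3.73, 0 and 1.73 CPM in K/B.g7 and 64.4, 3.01 and 60.4 CPM in B.g7 at 3, 8 and 25 weeks (log2 -5.01 ± 0.621 SE, adjusted p = 0.0327, edgeR). K/B.g7 at 3 weeks was above B.g7 at 8 weeks, each of few UMIs (1 and 11).

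Podxl (chr6:31519488-31563981) encodes podocalyxin, a sialomucin of apical membranes. It was at 11.2, 2.03 and 5.18 CPM in K/B.g7 and 64.4, 15.3 and 128 CPM in B.g7, with no overlap (log2 -4.11 ± 0.552, adjusted p = 0.0381, edgeR). Cela1, an elastase gene, was at 11.2, 2.03 and 2.59 CPM against 107, 9.84 and 47.6 CPM (log2 -3.77 ± 0.537, adjusted p = 0.0477, edgeR). These 3 genes also passed without 8 weeks, and none of them passed without 3 or without 25 weeks. Over all mesothelial cells they missed the threshold, with adjusted p between 0.0744 and 0.274. Outside the mixed clusters the levels were alike, with Podxl at 10.2, 5.13 and 6.94 CPM in K/B.g7 and 68.3, 14.9 and 132 CPM in B.g7.

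The gene higher in K/B.g7 was C1qa, a complement gene that macrophages express. It was at 0, 87.2 and 7.34 CPM in K/B.g7 and 0, 0.820 and 0.320 CPM in B.g7 (log2 5.64 ± 0.719, adjusted p = 0.0381, edgeR), and it passed in none of the fits that left out an age. Outside the mixed clusters it was at 0, 0 and 2.14 CPM in K/B.g7 and 0, 1.10 and 0.519 CPM in B.g7. The summed leukocyte genes (7 genes) moved with it, from 112 CPM in K/B.g7 at 8 weeks over the cells with at least 12 UMIs to 18.0 CPM at most in any library outside the mixed clusters. Cluster 8 was left out for its leukocyte genes and had C1qa among its leading genes, so both falls follow in part from that choice.

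Among genes of leukocyte adhesion and matrix, none passed. Vcam1, the adhesion receptor that leukocyte integrins bind, had the smallest p over all mesothelial cells (log2 1.90 ± 0.276, adjusted p = 0.201, edgeR). In the cells with at least 12 UMIs it was at 78.3, 446 and 122 CPM in K/B.g7 and 10.7, 116 and 19.7 CPM in B.g7 (log2 2.18 ± 0.339, adjusted p = 0.0645). Outside the mixed clusters the values were 108, 110 and 119 CPM against 39.0, 115 and 9.69 CPM, so that the 2 libraries of 8 weeks were level. Fibroblasts of the same libraries carried 165, 613 and 264 CPM and 193, 368 and 229 CPM of it. Lum, a collagen-binding proteoglycan of fibroblasts, had a log2 difference of 2.10 (adjusted p = 0.248), the gelatinase gene Mmp2 one of 1.79 (0.213), Ltbp1, which holds latent TGF-beta in the matrix, one of 2.08 (0.233), Comp one of 2.18 (0.233) and Col15a1 one of 2.02 (0.239). On the lower side Trib1 had -1.67 (0.369), Tuba4a -1.41 (0.483) and Clip3 -1.73 (0.505).

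**Figure D5:**
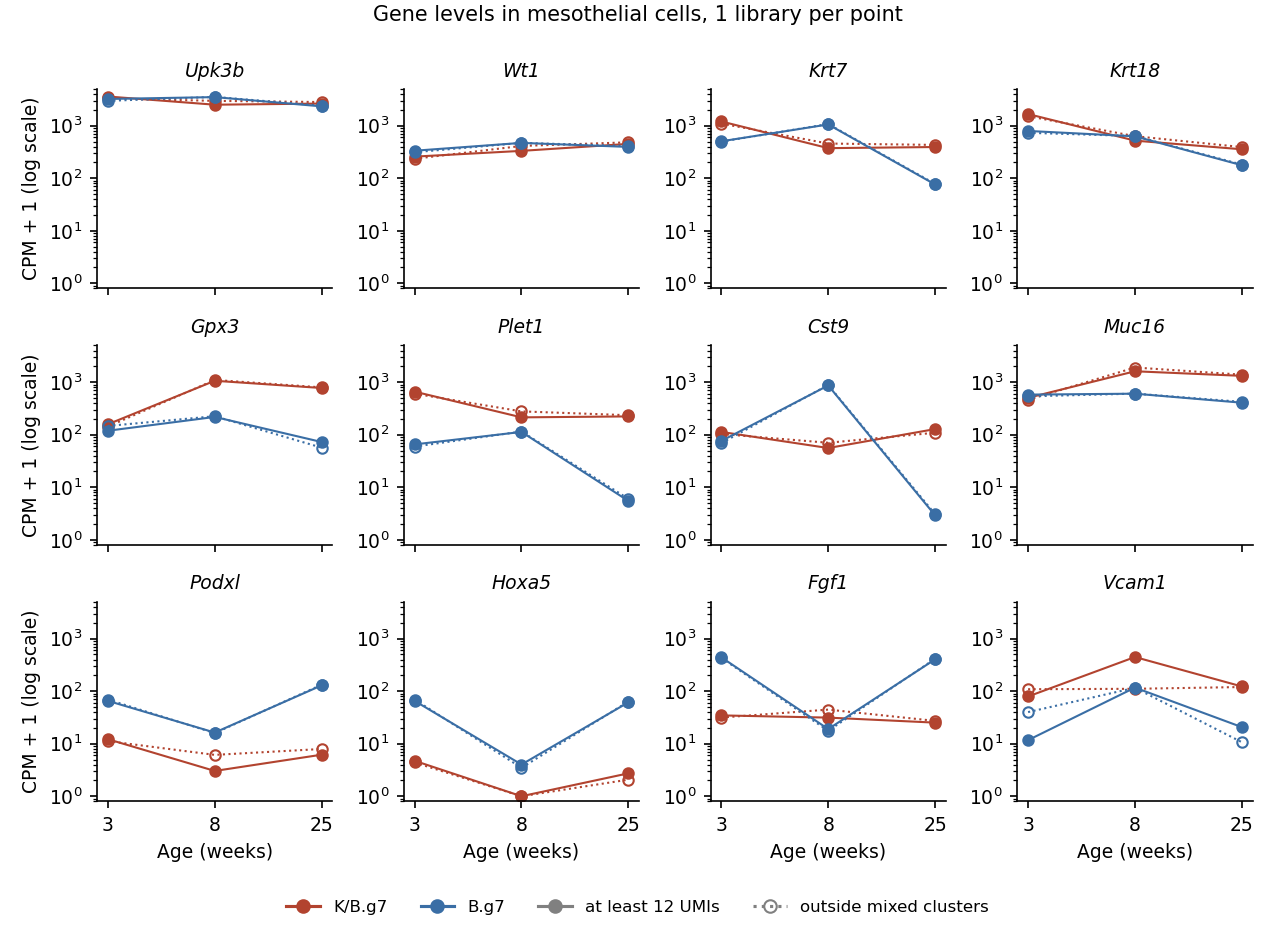
CPM plus 1, on a logarithmic axis, of 12 genes in the mesothelial cells of each library, by age and genotype. Filled points with solid lines are cells with at least 12 UMIs of the rule genes and open points with dotted lines are cells outside the mixed clusters. Podxl and Hoxa5 lie lower in K/B.g7 than in B.g7 at every age, Upk3b and Wt1 lie close together, and Cst9 and Krt7 cross between 8 and 25 weeks.

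Gene groups were counted against all genes tested. For genotype, no group had a called gene over all mesothelial cells, and with at least 12 UMIs only the surface coat group had one, Podxl. The immediate early and heat shock genes, which also respond to tissue dissociation, leaned one way, since 0 of 15 had a fitted difference above 0 in either set of cells, against 46.2% and 50.7% of all genes. Their median log2 difference was -0.62 over all mesothelial cells and -0.72 with at least 12 UMIs (all genes -0.04 and 0.01), with 0 called and 1 and 7 at an unadjusted p under 0.05. Their sum over all mesothelial cells was higher in K/B.g7 at 3 weeks (18101.1 against 14397.9 CPM) and lower at 8 and 25 weeks. Fibroblasts had the same order, with K/B.g7 higher at 3 weeks (27837.9 against 24573.9 CPM). They were lower in K/B.g7 at 8 weeks (25211.5 against 34630.2 CPM) and 25 weeks (24845.6 against 29444.5 CPM). The stress factor gene Atf3 was at 3554.3, 1628.6 and 1689.7 CPM in K/B.g7 and 4570.1, 2683.2 and 5250.6 CPM in B.g7, so that K/B.g7 was the lower library at 3 of 3 ages. The AP-1 gene Jun was at 2976.2, 1902.4 and 2167.0 CPM against 4301.9, 3429.9 and 3397.7 CPM, with no overlap. The 14 mesothelial genes outside the rule had 13 tested, of which 8 lay above 0 in both sets of cells, with medians of 0.16 and 0.02 and none called. The 13 complement genes had medians of -0.22 and -0.23 with none called.

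Within a single age, each comparison is of 2 libraries with no replicate, and a gene was counted when it differed at least 2-fold with its exact counting interval beyond 1. Over all mesothelial cells 531 genes of 7985 compared at 3 weeks were higher in K/B.g7 (6.65%) and 185 lower (2.32%). At 8 weeks 518 of 10154 were higher (5.10%) and 222 lower (2.19%), and at 25 weeks 1484 of 11656 were higher (12.7%) and 615 lower (5.28%). With at least 12 UMIs the counts were 167 and 114 of 2927 at 3 weeks (5.71% and 3.89%), 500 and 221 of 10034 at 8 weeks (4.98% and 2.20%) and 1446 and 663 of 11486 at 25 weeks (12.6% and 5.77%). Of 9967 genes compared at both 8 and 25 weeks, 126 were higher and 23 lower in K/B.g7 at both ages, 43 were higher at 8 and lower at 25 weeks, and 46 were lower at 8 and higher at 25 weeks.

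At 25 weeks several epicardial factors and junction genes were higher in the K/B.g7 library. Of the 12 epicardial factors compared, 7 were at least 2-fold higher in K/B.g7 and 0 lower, against 12.6% and 5.77% of all genes, while at 8 weeks 0 were higher and 1 lower. Markers of valve interstitial fibroblasts moved the same way at 25 weeks, with 4 of 5 higher and a sum of 265 against 63.0 CPM (107 against 32.7 CPM outside the mixed clusters). Cluster 3, led by fibroblast genes, held 27.4% of the K/B.g7 and 9.60% of the B.g7 cells of that age. The part of these cells in the counts was not tested. Tbx18, a T-box factor of the epicardium, was at 142, 187 and 178 CPM in K/B.g7 and 96.6, 264 and 54.9 CPM in B.g7, and Tbx20 was at 11.2, 69.0 and 133 CPM against 42.9, 172 and 26.0 CPM. Outside the mixed clusters the 25 week libraries stood at 186 and 55.9 CPM for Tbx18 and at 98.8 and 16.4 CPM for Tbx20. Fibroblasts held a mean of 26.0 CPM of Tbx18 and 346 CPM of Tbx20. Of 14 junction and polarity genes 8 were higher and 1 lower at 25 weeks, and 0 of 13 passed the fold at 8 weeks. The cadherin gene Cdh3 stood at 93.3 against 8.01 CPM at 25 weeks (ratio 11.6, counting interval 8.53 to 16.2), and the desmosome gene Dsg2 at 99.3 against 7.53 CPM (13.2, 9.61 to 18.5), while fibroblasts held means of 0.349 and 0.512 CPM. The growth factor gene Tgfb2 stood at 245 against 15.5 CPM (15.8, 12.7 to 19.8). For each of these genes it was the 25 week B.g7 library that was low, below the 5 other libraries in all but Tbx20.

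The 25 week B.g7 library was high in another set of genes, some of which were also high in B.g7 at 3 weeks. Fgf1, a fibroblast growth factor, was at 440, 18.0 and 403 CPM in B.g7 at 3, 8 and 25 weeks and at 33.6, 30.4 and 24.2 CPM in K/B.g7. Fndc1 was at 483, 25.1 and 752 CPM against 145, 36.5 and 20.7 CPM. Csrp2, a LIM domain gene, was at 2757.1, 180 and 2139.5 CPM against 697, 479 and 178 CPM. In all 3 genes the 8 week B.g7 library lay below that of K/B.g7 while those of 3 and 25 weeks lay above. The lysophospholipase gene Enpp2 was at 182, 22.7 and 804 CPM against 3.73, 38.5 and 46.6 CPM, and fibronectin, Fn1, at 182, 159 and 848 CPM against 343, 110 and 76.0 CPM. The hyaluronan synthase gene Has1 was at 129, 194 and 364 CPM against 134, 101 and 74.7 CPM.

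Leading genes of cluster 4, Slurp1 among them, were highest in the 8 week B.g7 library. That library held 167 of the 178 cells of the cluster, so this follows in part from the choice of these genes. Cst9, a cystatin gene, was at 866 CPM there and at 1.92 CPM in B.g7 at 25 weeks, with 112, 54.8 and 127 CPM in K/B.g7 and 75.1 CPM in B.g7 at 3 weeks. Its K/B.g7 to B.g7 ratio was 0.0632 at 8 weeks and 66.3 at 25 weeks. Slurp1 was at 64.4, 608 and 9.29 CPM in B.g7 and 336, 160 and 152 CPM in K/B.g7, and the ion transport regulator gene Fxyd3 at 1094.2, 2845.3 and 256 CPM against 701, 302 and 778 CPM. Plet1, a surface protein of epithelial progenitors, was higher in K/B.g7 at every age, at 660, 213 and 222 CPM against 64.4, 112 and 4.49 CPM, and its groups did not overlap.

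Of 8 chemokine genes compared at 8 weeks, 5 were at least 2-fold higher in K/B.g7 and 0 lower, against 4.98% and 2.20% of all genes, while 0 of 13 interferon-gamma induced and 1 of 14 type I interferon induced genes were higher. The chemokine sum was 2285.7 CPM in K/B.g7 and 1029.9 CPM in the B.g7 library, and 583 and 1019.8 CPM outside the mixed clusters. Single genes, chosen after their values were seen, were also read in both sets of cells. The metalloproteinase gene Mmp3 was at 921 CPM in K/B.g7 at 8 weeks and at 0 to 2.16 CPM in the other 5 libraries, and outside the mixed clusters it was at 7.70 CPM. Fibroblasts of that library carried 1002.4 CPM of it. The metalloproteinase inhibitor gene Timp1 was at 1926.8 CPM there against 208 CPM in the B.g7 library of that age, and outside the mixed clusters at 123 against 210 CPM. The neutrophil chemokine gene Cxcl2 was at 381 against 22.7 CPM, and outside the mixed clusters at 18.0 against 23.5 CPM. Cxcl1 was at 748 against 320 CPM, and outside the mixed clusters at 139 against 311 CPM. In these last 3 genes the order of the 8 week libraries turned when the mixed cells were left out.

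Antigen presentation genes were read in the same way. Of 6 MHC class II genes compared, 4 were at least 2-fold higher at 8 weeks in K/B.g7 (4.98% of all genes), and 5 of 5 were lower at 25 weeks (5.77% of all genes). Their sum was 657 CPM in K/B.g7 and 189 CPM in B.g7 at 8 weeks, and outside the mixed clusters 118 and 187 CPM. At 25 weeks it was 25.1 and 163 CPM, and outside the mixed clusters 27.2 and 134 CPM. The class I gene H2-K1 was at 1950.6, 1951.1 and 638 CPM in K/B.g7 and 944, 1734.0 and 884 CPM in B.g7. C3, the central complement component, was abundant in every library, at 1402.3, 6476.0 and 4198.0 CPM in K/B.g7 and 3550.9, 3083.1 and 3952.2 CPM in B.g7, against a mean of 396 CPM in fibroblasts.

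The genotype difference itself was then compared between mesothelial cells and fibroblasts of the same libraries. Over all mesothelial cells 95 of 14452 genes (0.657%) had a genotype difference that differed between the 2 cell classes (edgeR, adjusted p under 0.05), 71 upward in the mesothelial cells and 24 downward. DESeq2 called 28, leaving out an age gave 90 to 251, and edgeR on the cells with at least 5 UMIs of the rule genes called 0. In the cells with 12 or more UMIs 274 of 13964 genes passed (1.96%), and 0 of them did without 3 weeks. Fibroblasts mixed into the mesothelial sums were not modelled in this test, nor was the neuron RNA in the 3 week sums of all mesothelial cells.

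Gpx3 (chr11:54902453-54910377) rose with the K/B.g7 genotype in mesothelial cells relative to fibroblasts. It was at 157, 1062.8 and 774 CPM in K/B.g7 and 118, 217 and 71.6 CPM in B.g7 mesothelial cells at 3, 8 and 25 weeks, and at 197, 462 and 465 CPM and 266, 499 and 454 CPM in the fibroblasts. The log2 difference between the classes was 2.34 ± 0.292 (adjusted p = 7.06e-04, edgeR, all mesothelial cells). It was fitted on the sums of all mesothelial cells, while the levels given are of cells with at least 12 UMIs. Fgl2, a fibrinogen-like secreted protein, was at 123, 412 and 460 CPM against 85.8, 137 and 36 CPM (2.64 ± 0.323, adjusted p = 7.06e-04), and the peptidase gene Enpep at 22.4, 128 and 89.4 CPM against 0, 62.0 and 1.92 CPM (3.01 ± 0.519, adjusted p = 0.00807). In all 3 genes K/B.g7 was the higher library at 3 of 3 ages, by little for Gpx3 and Fgl2 at 3 weeks. Without 25 weeks Enpep missed the threshold (adjusted p = 0.0706).

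Fibroblast genes were among the other upward calls. Lum (2.16 ± 0.298, adjusted p = 0.00139), Mfap4 (2.17 ± 0.272, adjusted p = 7.06e-04) and Cytl1 (2.48 ± 0.334, adjusted p = 0.00116, edgeR) were each more abundant in fibroblasts than in mesothelial cells in every library. Lum is also a gene by which the fibroblasts were chosen, so its level in them and its call rest in part on that choice. Lum was at 168, 434 and 348 CPM in K/B.g7 and 21.5, 54.4 and 130 CPM in B.g7 mesothelial cells, and outside the mixed clusters at 308, 56.5 and 121 CPM against 19.5, 37.5 and 44.0 CPM. The part of the mixed cells in these calls was not tested. Downward calls included Podxl (-4.91 ± 0.615, adjusted p = 7.06e-04), Hoxa5 (-4.20 ± 0.778, 0.0129), Fgf1 (-2.72 ± 0.497, 0.0116) and the water channel gene Aqp5 (-2.50 ± 0.452, 0.0104). Fibroblasts held at most 6.40 CPM of any of these 4 genes in any library. Aqp5 was at 67.1, 14.2 and 10.8 CPM in K/B.g7 and 107, 88.3 and 105 CPM in B.g7 mesothelial cells, with no overlap. Without 25 weeks these 4 missed the threshold (adjusted p between 0.0914 and 0.901), and Hoxa5 also missed it without 3 weeks (0.0709).

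Between 25 and 3 weeks many genes passed in the sums of all mesothelial cells, which held the neuron RNA described above at 3 weeks. Of 11230 genes 3323 passed (29.6%, edgeR), 1306 higher and 2017 lower at 25 weeks, and all 10 neuron genes were among the lower ones. Cartpt had a fitted log2 difference of -16.62, Pcsk1n one of -15.54 and Nefl, a neurofilament gene, one of -14.75. With at least 12 UMIs 4 of 10191 genes passed (0.0393%). Leaving out 1 library of 3 or 25 weeks gave 0 calls without either 3 week library, 107 without K/B.g7 and 230 without B.g7 of 25 weeks. The difference from fibroblasts showed the same step, with 3405 of 14452 genes (23.6%) over all mesothelial cells and 123 of 13964 (0.881%) with at least 12 UMIs.

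The cell division genes Mki67, Cenpf and Prc1 fell from 3 to 25 weeks, and none of them passed without either 3 week library in the cells with at least 12 UMIs. Mki67, the gene of the Ki-67 protein of cycling cells, was at 131, 0 and 4.75 CPM in K/B.g7 and 96.6, 0.820 and 6.89 CPM in B.g7 at 3, 8 and 25 weeks (log2 -4.22 ± 0.549, adjusted p = 0.0316, edgeR). Cenpf, a kinetochore gene, was at 205, 2.03 and 7.34 CPM against 85.8, 3.01 and 7.69 CPM (-4.17 ± 0.537, adjusted p = 0.0316), and the spindle midzone gene Prc1 at 101, 0 and 5.18 CPM against 118, 1.09 and 8.49 CPM (-3.94 ± 0.524, adjusted p = 0.0316). Both libraries of 3 weeks were far above the 4 others in each gene. The cell division list had 14 genes tested, of which 2 were called lower and 11 lay lower at an unadjusted p under 0.05, with a median of -3.31 against 0.11 over all genes. The B.g7 values of 3 weeks rest on 9, 8 and 11 UMIs, and Mki67 was found there in 1 of 14 cells, against 4 of 22 cells in K/B.g7 at that age. The other gene called was Xist, at 496, 641 and 66.9 CPM in K/B.g7 and 708, 603 and 33.6 CPM in B.g7 (-3.52 ± 0.442, adjusted p = 0.0316).

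Genes that rose with age over all mesothelial cells were less clear in the cells rich in mesothelial RNA. The carboxylesterase gene Ces1d had a log2 difference of 3.73 over all cells (adjusted p = 3.25e-04, edgeR) and of 1.70 with at least 12 UMIs (adjusted p = 0.348). For Gsta3, a glutathione transferase, the values were 3.95 and 2.12 (adjusted p = 0.297 for the latter), and for Aldh1a1, a retinaldehyde dehydrogenase of the epicardium, 3.72 and 1.93 (0.215). Aldh1a1 was at 97.0, 191 and 289 CPM in K/B.g7 and 96.6, 298 and 456 CPM in B.g7, in order of age in both genotypes.

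Between 25 and 8 weeks, where neuron RNA was low in all 4 libraries, few genes passed. Over all mesothelial cells 0 of 11230 did (0%, edgeR), with 474 at an unadjusted p under 0.05 and 6 called by DESeq2. Leaving out 1 of the 4 libraries gave 18 to 689 calls. With at least 12 UMIs 3 of 10191 passed (0.0294%), and leaving out 1 library gave 18 to 372. They included Xist, lower at 25 weeks, and Ddx3y, a Y-linked gene, higher (log2 3.78 ± 0.470, adjusted p = 0.0336). The class I antigen presentation genes lay lower at 25 weeks, with 0 of 11 above 0 (51.6% of all genes), a median of -1.04 against 0.01, 8 at an unadjusted p under 0.05 and none called. Of these, B2m was at 1646.9 and 653 CPM in K/B.g7 and at 1159.7 and 599 CPM in B.g7 at 8 and 25 weeks. The summed class I genes were at 5475.0, 6443.5 and 2526.0 CPM in K/B.g7 and 3186.2, 5510.8 and 3120.2 CPM in B.g7 at 3, 8 and 25 weeks. In B.g7 the 25 week sum was thus close to that of 3 weeks. Age and sex cannot be told apart in this contrast. In fibroblasts the sum was also lower at 25 than at 8 weeks, at 5108.8 and 1446.2 CPM in K/B.g7 and 2802.4 and 1583.6 CPM in B.g7 at 8 and 25 weeks.

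Transcripts on the marker lists of other cells also differed between libraries. The red cell transcripts (5 genes), with at least 12 UMIs, summed to 26.1, 1235.2 and 474 CPM in K/B.g7 and 42.9, 448 and 63.3 CPM in B.g7 at 3, 8 and 25 weeks, and reached 4955.0 CPM in fibroblasts of K/B.g7 at 8 weeks. The cardiomyocyte list (6 genes) summed to 485, 789 and 741 CPM in K/B.g7 and 107, 1365.0 and 24.4 CPM in B.g7 in the same cells. Most of this was the atrial myosin light chain gene Myl7, at 470, 775 and 730 CPM in K/B.g7 and 96.6, 1350.2 and 19.4 CPM in B.g7. Myl7 was detected in 42.6% of all mesothelial cells, against 2.58% of fibroblasts, while the cardiomyocyte genes Myh6, Actc1 and Nppa were each in 0.386% or less. The shares for Tnnt2 and Tnni3, the rest of the list, are not given here. Kdr, listed as an endothelial marker, was at 317 CPM over the pooled mesothelial cells and 229 CPM in endothelial cells, while the endothelial cadherin gene Cdh5 was at 0.689 and 481 CPM. The endothelial cells were chosen by UMIs of both Pecam1 and Cdh5, so the level of Cdh5 in them follows from that choice. The part of red cell transcripts in the differences between libraries was not tested.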

How the data were processed

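Single-cell 3′ RNA libraries of digested mitral valves were analysed. Per the submitters' processing notes the authors used Cell Ranger 3.1.0 and mm10, and the deposited matrices hold UMI counts per gene and barcode, taken as they are. Of 31053 gene IDs, 31011 were matched to GENCODE M21, which supplied the positions. Kept barcodes had 300 or more genes and up to 10% of UMIs from mitochondrial genes (53526 of 58351). No doublets were removed. The automatic Scrublet threshold marked 45 cells and was not used, so the highest scores at 0.8% per 1000 barcodes (5655 cells) were called predicted doublets.

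The mesothelial cells and all gene lists were chosen with earlier results of these data known. Counts were summed per library and class and fitted with edgeR 4.0.16 (TMM, filterByExpr, quasi-likelihood test, Benjamini-Hochberg adjustment, threshold 0.05), with genotype and age as terms. The labels' ages pair the libraries, so age is the block of the genotype test. The class comparison has the library as a block. DESeq2 1.42.0 was an alternative. A library entered with at least 20 cells, or 10 of the cells with at least 12 UMIs of the 5 genes. Summed UMIs per library ran from 539869 to 6517281. Ratios within an age carry exact 95% intervals and needed at least 20 UMIs. Clusters came from scanpy 1.11.5 (Leiden). Scripts were tested on simulated data.

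Named genes were those of largest fitted difference, or of smallest p where none passed, with 1 sign at every age and a mean of at least 20 CPM. To these came members of the lists and leading genes of clusters. The cells with at least 12 UMIs, the contrast of 25 against 8 weeks, the genes called in them and the genes shown for the pattern across libraries were chosen after values were seen. Genes with several IDs (3 on the lists) were given no value. Some genes that are part of the counts are not reported here by name.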

Additional observations from a re-analysis of the deposited data

Results flagged for a closer look

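The genotype difference of 95 genes differed between mesothelial cells and fibroblasts of the same libraries, by an edgeR test of the interaction. The difference of 25 against 3 weeks differed between them in 3405 genes, and in 123 genes with at least 12 UMIs of the rule genes.

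The share of mesothelial cells was 0.263 percentage points higher in K/B.g7 at 3 weeks and lower at 8 and 25 weeks. With 1 library per genotype and age, the difference between ages was not tested. With at least 5 UMIs of the 5 genes K/B.g7 was lower at 3 weeks too (0.454% and 0.503%), and with at least 12 UMIs the shares were 0.384% and 0.371%.

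In cells with at least 12 UMIs, 46 genes were at least 2-fold lower in K/B.g7 at 8 weeks and higher at 25 weeks, and 43 genes the other way round. Cst9 and Krt7 were among the 46. These opposite differences were not tested.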

How the results depend on the processing

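The share difference kept its sign in every alternative run (its test cannot pass the threshold in this design), between -2.66 and -2.96 points, and between -4.69 (without B.g7 at 3 weeks) and -1.16 points (without B.g7 at 25 weeks) with a library left out (-4.27 to -1.05 with at least 12 UMIs). With ages as a replicate block it was -2.89 points (exact sign-flip permutation p = 0.5). Genotype gave 0 calls also with no replicate block, 26 with DESeq2, 210 with no filter on low counts, 5 with at least 12 UMIs, and 0 to 114 without 1 age (0 to 162 with at least 12 UMIs, 35 without 25 weeks). For 25 against 3 weeks, 3323 calls became 119 with at least 5 and 4 with at least 12 UMIs, 1232 to 3782 without 1 library, and 0 to 230 without 1 library at 12 UMIs (107 without K/B.g7 at 25 weeks). For 25 against 8 weeks, 0 became 6 with DESeq2, 216 with no filter, 1 without predicted doublets, 3 with at least 12 UMIs, 18 to 689 without 1 library, and 18 to 372 at 12 UMIs (298 without K/B.g7 at 8 weeks). The genotype difference from fibroblasts gave 28 calls with DESeq2, 331 with no filter, 0 with at least 5 UMIs, 274 with at least 12 UMIs, 90 to 251 without 1 age, and 0 to 258 at 12 UMIs (43 without 25 weeks). The age difference from fibroblasts gave 1873 with DESeq2, 212 with at least 5 UMIs, 123 with at least 12, and 1704 to 2781 without 1 library. At 3 weeks the genes at least 2-fold higher numbered 341 with at least 5 UMIs, 167 with at least 12 and 186 outside the mixed clusters, and those lower 114 and 120 in the last 2. Over all mesothelial cells, Krt8 and Krt18, at log2 -0.14 and -0.23 for 25 against 3 weeks, turned to 0.84 and 0.83 without K/B.g7 at 3 weeks, and were -0.81 and -0.95 without B.g7 at 3 weeks. Of 464 refits of 40 single-gene results, 313 kept sign and side of the threshold, 70 lost the call, 79 gained one and 2 changed sign. The causes were not tested. Depth limits the 3 week libraries most, with 14 B.g7 cells of at least 12 UMIs. With at least 5 UMIs the B.g7 library of 3 weeks had 19 cells, under the limit of 20, and was left out of the fits. The genotype fits at 5 UMIs thus held 4 libraries and the age fits 5, so their counts reflect lost libraries as well as the limit.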
